A study of Drosophila melanogaster with 6 samples.

Results

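Among 18769 numeric probe sets on single-colour Affymetrix arrays of fly larval fat body, 91 reached a detection floor in every srl1 mutant array and in no wild-type array. Each array was scaled to a common trimmed mean of 101, and the floor was that target divided by 5, a scaled signal of 20.2. The 91 were chosen by these 6 arrays themselves, so their levels and gaps below describe the choice and are no evidence for it. They make up 0.485% of the numeric probe sets. The opposite pattern, at or above the floor in every wild-type array and in no mutant array, was found at 30 probe sets, or 0.16%.

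The series compared 3 biological replicates of larvae homozygous for srl1 (srl1/srl1, titled KG) with 3 of a genetically matched control (srlwt/srlwt). Each replicate was RNA from 20 fat bodies, and the extraction text gives an age of 5 days and names mutant larvae for both groups. Amplification started from 30 ng of total RNA in 2 rounds. Each sample was therefore a pool of animals, and 1 mutant allele was studied. The labels call the samples biological replicates without naming separate crosses or cultures, so p-values measure the spread between these samples.

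The fat body of the fly larva stores fat, glycogen and protein and works as an endocrine organ, much as liver and adipose tissue do together in mammals. The gene srl (spargel) encodes the fly relative of the PGC-1 coactivators, which raise the expression of genes for mitochondrial function. A transcript that passes a floor in one genotype only can be one that is switched on, or one whose level lies just above the floor in one group and just below it in the other. No probe set was paired with srl in the platform annotation used here, so the level of srl was not analysed here.

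The tissue label was set against 8 fat body marker probe sets, of which 7 reached the floor in at least 3 arrays. Lsp2, a larval serum storage protein, had signals of 19486, 10616 and 11049 in mutant replicates 1, 2 and 3, against 8728, 12230 and 11072 in wild-type replicates 1, 2 and 3. The lipid carrier apolpp had 15202, 9679 and 9617 in the mutant arrays, against 8481, 11027 and 9654 in the wild-type arrays. Both are abundant fat body products, and their groups overlapped. Fbp2, another larval fat body protein gene, had 15840, 9985 and 9998 in the mutant arrays, against 6932, 9259 and 9758 in the wild-type arrays, with no overlap. Fbp1, which encodes a receptor for larval serum proteins, had 10594, 1167 and 7240 in the mutant arrays, against 101, 40.98 and 3342 in the wild-type arrays, where the groups overlapped. The collagen gene Col4a1 had 3594, 5861 and 3002 in the mutant arrays, against 6431, 5827 and 4371 in the wild-type arrays. None of the 7 was called by limma (1 higher, or 14.3%, at an unadjusted p under 0.05, against 15.0% of all tested probe sets). All 12 nervous system marker probe sets were under the floor in all 6 arrays.

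Mutant replicate 2 stood apart from the other mutant arrays. Across the 8506 tested probe sets its log2 signals correlated at 0.904 and 0.919 with mutant replicates 1 and 3, and at 0.949, 0.951 and 0.967 with wild-type replicates 1, 2 and 3. These correlations run across probe sets, which are not independent replicates. Mutant replicate 1 was the dim array, with a deposited trimmed mean of 47.1 against 98.5 to 127 in the other 5, and it was scaled up 2.14 times. The floor lay at a deposited signal of 9.42 in mutant replicate 1 and at 19.7 to 25.5 in the other arrays, and 50 of the 91 members had a deposited signal under 20.2 in mutant replicate 1. The GAPDH 3'/5' signal ratio, a sign of RNA quality or of the length of the amplified product, was 4.28, 1.72 and 2.18 in mutant replicates 1, 2 and 3, against 1.55, 1.85 and 2.00 in wild-type replicates 1, 2 and 3. Mutant replicates 1 and 3 had the highest ratios. After scaling, 9502 numeric probe sets of mutant replicate 1 reached the floor, compared with 7820 to 8710 on the other arrays. Wild-type replicate 3 correlated at 0.911 and 0.920 with mutant replicates 1 and 3, the highest values among the wild-type arrays.

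Of the 91 members, 67 were paired with 1 gene each, all different, 4 with several genes and 20 with none. Among the 67 genes 66 were found in the reference gene table, all of them protein coding, and 31 carry only a CG number as a name. The probe set names show 65 plain probe sets (_at), 7 of the kind that matches several transcripts of a gene (_a_at) and 19 of the kind that can match transcripts of several genes (_s_at). The last kind made up 20.9% of the members and 15.1% of the tested probe sets. By chromosome arm, 17 of the 66 placed genes lay on 2L, 16 on 2R, 8 on 3L, 14 on 3R and 11 on X. Of all tested probe sets with a placed gene, 18.7%, 20.1%, 19.2%, 25.1% and 16.3% lay on the same arms. Only 2 pairs of members were within 5 genes of each other in the reference gene order, CG8840 with CG2772 on 2L and Pde8 with CG30183 on 2R.

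Most members were dim in the mutant. Their mean mutant signal had a median of 35.8 and ran from 21.7 to 359, and the mean wild-type signal had a median of 13.1 and ran from 2.86 to 19.0. The mutant mean was under 30 at 32 members, from 30 to 40 at 26, from 40 to 60 at 21, from 60 to 100 at 5 and above that at 7. The median member signal was 41.4, 25.9 and 36.5 in mutant replicates 1, 2 and 3, against 11.4, 13.7 and 14.8 in wild-type replicates 1, 2 and 3. For scale, 117 control probe sets for neither fly nor spiked-in transcripts had a median of 2.38 and a 95th percentile of 13.4, so many wild-type values of the members lay near the top of the background range.

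**Figure D1:**
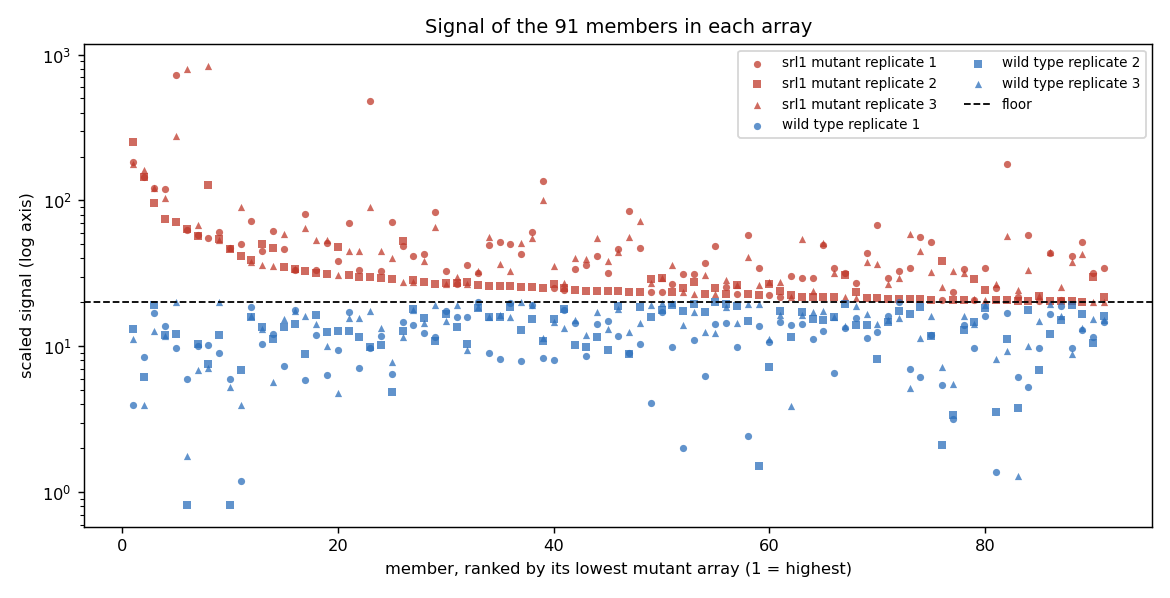
Scaled signal (log axis) of the 91 members in each array, ranked by the lowest mutant array, with red marks for the srl1 mutant, blue marks for the wild type and a dashed line at the floor of 20.2. The red marks of the leading 11 members lie at least 2 times above the floor, while the lowest red mark follows the floor closely over most of the ranks.

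The gap between the groups was small at most members. The lowest mutant signal exceeded the highest wild-type signal by a median of 1.41-fold (0.49 on the log2 scale), with a range of 1.05-fold to 17.2-fold. The gap was at least 2-fold at 27 members, at least 3-fold at 13 and at least 5-fold at 9. Among all tested probe sets a gap of at least 2-fold in this direction was found at 0.752%, and 16.6% had 3 mutant values above 3 wild-type values, a condition that the choice imposes on every member. In 53 of the 91 the lowest mutant array was under 1.25 times the floor, and in 29 the highest wild-type array reached 0.9 of it. Only 11 members had every mutant array at 2 times the floor or more. At the 30 probe sets of the opposite pattern the median gap was 1.72-fold, with 11 gaps of at least 2-fold, and no test was made of that difference.

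The edge of the choice was crowded. The nearest members inside were an unnamed probe set (1624924_at), ReepA and CG10459, whose lowest mutant signals were 20.2, 20.2 and 20.3. ReepA had 31.6, 30.0 and 20.2 in the mutant arrays, against 11.6, 10.6 and 15.4 in the wild-type arrays. Just outside lay CG9447, a probe set shared by CG42568 and DnaJ-60, and Nuak, with lowest mutant signals of 20.1, 20.1 and 19.9. CG9447 had 29.02, 22.98 and 20.1 in the mutant arrays, against 17.9, 18.3 and 12.4 in the wild-type arrays. Members and non-members at the edge thus differed by less than the spread between replicates of either group.

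**Figure D2:**
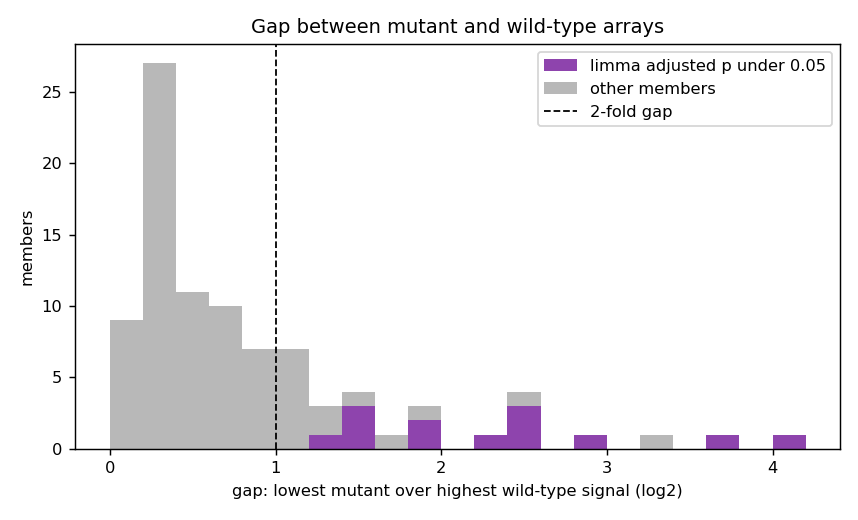
Number of members by gap, the lowest mutant signal over the highest wild-type signal on the log2 scale, with the 13 members that passed the limma test in purple, the others in grey and a dashed line at a 2-fold gap. The bulk lies left of the line, and all purple members lie right of it.

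A limma fit across all 8506 tested probe sets with Benjamini-Hochberg adjustment called 118 (1.39%) in either direction at the 0.05 threshold. Of these 65 (0.764%) were higher in the mutant, and 13 of the 65 were members. All 91 members passed the filter on low values, and they did so only through the mutant arrays that chose them, so this count carries no weight of its own. The 13 calls had limma adjusted p-values from 0.00338 to 0.0444, and all of them had a gap of at least 2-fold. The count changed whichever array was left out. A fit with fewer arrays has less power, and the part of this in the falls was not tested. The count came to 5, 64 or 3 when mutant replicate 1, 2 or 3 was left out. It was 6, 6 or 7 when wild-type replicate 1, 2 or 3 was left out. The fit without mutant replicate 2 called 20.4% of all tested probe sets higher, so the 64 stand against that share. The median of the fitted log2 fold changes was 0.10 for the tested probe sets as a whole, and median centring of the arrays moved this median to -0.25.

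The member with the highest floor-clearing signal was 1641450_s_at, for which the annotation names no gene. It had signals of 183, 252 and 178 in mutant replicates 1, 2 and 3, against 3.94, 13.2 and 11.2 in the wild-type arrays. Mutant replicate 2 was the highest of its 3 mutant values, and the groups were 13.4-fold apart at their nearest arrays. Its geometric mean mutant signal was 9.98 times the floor.

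CG12773, a member of the cation-chloride cotransporter family on the X chromosome, had the widest gap and even mutant levels. Its signals were 145, 145 and 161 in the mutant arrays, against 8.45, 6.14 and 3.98 in the wild-type arrays. The lowest mutant signal was 17.2 times the highest wild-type signal, and the geometric mean mutant signal was 7.45 times the floor. CG12773 was called in all 15 alternative fits and stayed a member under all 5 other scalings, as did 1641450_s_at.

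Kmn1, on the X chromosome, encodes a subunit of the kinetochore, the structure that ties chromosomes to the spindle. It had 122, 96.7 and 121 in the mutant arrays, against 17.0, 19.1 and 12.7 in the wild-type arrays. The gap was 5.06-fold and the geometric mean mutant signal was 5.58 times the floor. Its wild-type signals lay close under the floor, and Kmn1 stayed a member under only 1 of the 5 other scalings, although 14 of the 15 alternative fits called it.

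LManI, on 2L, encodes a lysosomal alpha-mannosidase, an enzyme that trims mannose from glycoproteins during their breakdown. It had 119, 74.2 and 103 in the mutant arrays, against 13.7, 11.98 and 11.8 in the wild-type arrays, a gap of 5.43-fold. Its direct neighbour in the reference gene order, LManII, encodes a related enzyme and was well above the floor in both groups. LManII, named after its values were seen, had 1427, 1277 and 1510 in the mutant arrays, against 273, 239 and 294 in the wild-type arrays. By the fit LManII was 2.37 higher on the log2 scale (SE 0.15, limma adjusted p = 0.00338 over all tested probe sets), with all 3 mutant arrays above all 3 wild-type arrays. LManII is also on the midgut marker list, where it was the 1 of 4 tested probe sets called higher, against 0.764% of all tested probe sets. The median log2 fold change of that list was -0.92, and only LManII was above 0. The probe sets of the other family members, LManIII to LManVI, were under the floor in all 6 arrays. Whether the LManI probes also bind LManII transcripts was not tested.

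Cyp6a17, a cytochrome P450 gene on 2R, had 50.05, 41.4 and 89.6 in the mutant arrays, against 1.20, 6.93 and 3.94 in the wild-type arrays. Its gap was 5.98-fold, and it stayed a member under all 5 other scalings, while 9 of the 15 alternative fits called it. A further P450 gene among the members, Cyp28d2 on 2L, had 52.2, 20.9 and 32.5 in the mutant arrays, against 12.03, 11.8 and 16.1 in the wild-type arrays. Its lowest mutant value was thus at the floor, and it was not called. On the fixed detoxification list, 14 probe sets were tested by limma, 0 were called higher and 1, GstD2, was called lower. At an unadjusted p under 0.05 the counts were 2 higher (14.3%) and 4 lower (28.6%), against 15.0% and 12.3% of all tested probe sets.

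Nlg2, on 2L, encodes a neuroligin, a cell adhesion protein of synapses. It had 47.2, 46.6 and 47.6 in the mutant arrays, against 5.95, 0.819 and 5.26 in the wild-type arrays. The mutant arrays were within 1.02-fold of each other, and the gap was 7.83-fold. A pair of further Nlg2 probe sets were under the floor in all 6 arrays. A second neuronal surface gene, dpr12 on 2R, had 136, 25.2 and 101 in the mutant arrays, against 8.36, 10.8 and 11.4 in the wild-type arrays, and its pair of further probe sets were likewise under the floor in all 6 arrays. The defining nervous system markers were under the floor throughout, as given above.

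Other called members were CG17167, CG42663, CG14834 and PpD5, beside 3 probe sets with no gene named. PpD5 encodes a protein phosphatase known from the testis and had 50.7, 31.5 and 53.3 in the mutant arrays, against 6.37, 12.4 and 9.98 in the wild-type arrays. CG14834 was called although it was dim, with 23.7, 20.8 and 32.6 in the mutant arrays against 3.16, 3.37 and 5.55 in the wild-type arrays. Its wild-type values lay between the median (2.38) and the 95th percentile (13.4) of the control probe sets. Its geometric mean mutant signal was 1.25 times the floor. CG14834 was called in only 4 of the 15 alternative fits and stayed a member under 2 of the 5 other scalings. CG17167, CG42663 and PpD5 stayed members under all 5, but each was called in only 6 of the 15 fits. CG42663 had 70.7, 28.8 and 40.3 in the mutant arrays, against 6.47, 4.85 and 7.84 in the wild-type arrays.

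Of the called probe sets with no gene named, 1639729_s_at had 57.96, 57.05 and 67.7 in the mutant arrays, against 9.97, 10.3 and 6.86 in the wild-type arrays. It stayed a member under all 5 other scalings. For 1631874_at the mutant values were 60.5, 54.2 and 53.5 and the wild-type values 9.02, 12.02 and 20.02, so wild-type replicate 3 lay just under the floor. It stayed a member under 0 of the 5 other scalings. The third, 1637535_at, had 45.1, 50.5 and 36.03 in the mutant arrays, against 10.4, 13.5 and 13.2 in the wild-type arrays, and was a member under all 5. Of the 15 alternative fits, 13 called 1639729_s_at, 8 called 1631874_at and 6 called 1637535_at.

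Some bright members differed widely between the mutant arrays. CG17224 had 728, 71.3 and 278 in the mutant arrays, against 9.79, 12.1 and 20.0 in the wild-type arrays (limma adjusted p = 0.0757). The probe set 1639019_s_at, which has no gene named, had 55.0, 127 and 835 in the mutant arrays, against 10.2, 7.52 and 7.09 in the wild-type arrays (limma adjusted p = 0.0975). For 1626319_a_at, also with no gene named, the mutant values were 62.9, 63.3 and 795 and the wild-type values 5.98, 0.819 and 1.78. In each of these a single mutant array carried most of the signal, and it was replicate 1 at CG17224 and replicate 3 at the others. In all, 6 members had mutant arrays over 4-fold apart.

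Mutant replicate 2 lay below its partners at most members. Its signal was below the geometric mean of mutant replicates 1 and 3 at 76 of the 91 members, with a median ratio of 0.750 (-0.42 on the log2 scale) and a range of 0.144 to 1.67. It was under 0.5 of that mean at 20 members and above 2 times the mean at 0. It lay within 1.25-fold of the mean at 31. Mutant replicate 2 was the lowest of the 3 at 57 members, replicate 3 at 19 and replicate 1 at 15. Mutant replicate 1 was the highest at 46, replicate 3 at 37 and replicate 2 at 8. The GAPDH 3'/5' ratio had the same order over the mutant arrays, with 4.28, 1.72 and 2.18 in replicates 1, 2 and 3, and its part in the result was not tested.

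A smaller difference of the same sign was seen outside the members. Among 4985 tested probe sets that were not members and had a mean mutant signal from 24.2 to 175, a range set by the members, the median difference of mutant replicate 2 was -0.14 on the log2 scale. It was the lowest of the 3 there at 48.9%, against 62.6% of the members. The mutant arrays spread by a median of 1.62-fold over the members and 1.59-fold over those probe sets. No test was made, since the choice itself held mutant replicate 2 at or above the floor.

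Against the geometric mean of mutant replicates 1 and 3, mutant replicate 2 was lowest at Ama, CG17224, CG8112, dpr12 and 1626319_a_at. At 1626319_a_at it was level with replicate 1 (63.3 and 62.9), and replicate 3 at 795 set the difference. Ama encodes Amalgam, a secreted adhesion protein of the immunoglobulin family. It had 477, 30.0 and 90.7 in the mutant arrays, against 9.80, 9.85 and 17.5 in the wild-type arrays. CG8112, which belongs to the sterol acyltransferase family, had 177, 20.6 and 57.0 in the mutant arrays, against 16.9, 11.2 and 9.26 in the wild-type arrays. At Ama and CG8112 mutant replicates 1 and 3 also differed by over 3-fold, so replicate 1 stood out as well.

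At the other end, mutant replicate 2 exceeded its partners most at 1625643_s_at, CG42319, 1641450_s_at, 1637001_at and 1626205_s_at, and only CG42319 of these has a gene named. CG42319 had 48.8, 52.4 and 27.6 in the mutant arrays, against 14.6, 12.8 and 11.6 in the wild-type arrays. The unnamed 1625643_s_at had 20.8, 38.4 and 25.3 in the mutant arrays, against 5.39, 2.11 and 7.26 in the wild-type arrays. The most even members, picked after their values were seen, were CG30183, Nlg2 and pad, with mutant arrays within 1.02-fold, 1.02-fold and 1.08-fold of each other. CG30183 had 33.6, 33.7 and 34.1 in the mutant arrays, against 17.8, 14.2 and 17.5 in the wild-type arrays.

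Leaving an array out of the choice gives a reading of that array which the choice did not use. On the other 5 arrays 456 probe sets were chosen without mutant replicate 2, and it reached the floor at 91 of them, or 20.0%. The same share was 83.5% of 109 for mutant replicate 1 and 72.2% of 126 for mutant replicate 3. Among the 10054 probe sets under the floor in all 3 wild-type arrays, mutant replicates 1, 2 and 3 reached it at 12.3%, 1.77% and 5.88%. Mutant replicate 2 reached the floor least often on both counts. The 10054 were not matched in signal level to the chosen probe sets, which lay at the floor in the partner arrays. The part of signal level in the contrast between these shares was not tested.

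Over the 456, mutant replicate 2 had a median signal of 13.6, beside 34.0 and 30.3 in mutant replicates 1 and 3, against 7.88, 12.4 and 13.5 in wild-type replicates 1, 2 and 3. At the 365 where it missed the floor its median was 12.1, and the wild-type medians were 7.01, 12.1 and 12.9. It was above all 3 wild-type arrays at 111 of these 365 (30.4%) and below all 3 at 52. So the number of members was set mainly by mutant replicate 2, which kept out 365 of the 418 probe sets that failed through a single mutant array.

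**Figure D3:**
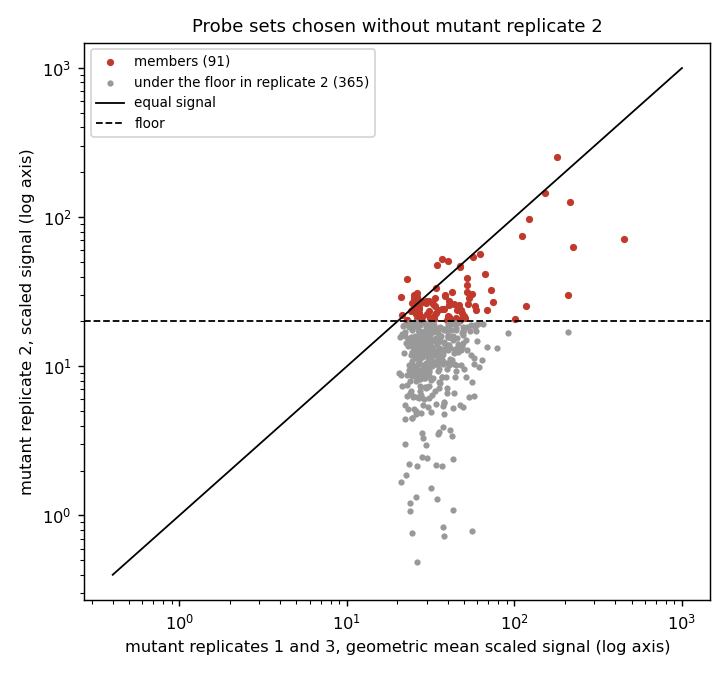
Signal of mutant replicate 2 against the geometric mean signal of mutant replicates 1 and 3 (both log axes) for the 456 probe sets chosen without replicate 2, with the 91 members in red, the 365 it missed in grey, a line of equal signal and a dashed line at the floor. Most red points lie under the line of equal signal, and the grey points reach down to 0.489.

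The wild-type arrays were less uneven. Chosen without wild-type replicate 1, 2 or 3, there were 107, 136 and 164 probe sets, and the array left out was under the floor at 85.0%, 66.9% and 55.5% of them. Among the 7706 probe sets at or above the floor in all 3 mutant arrays, these arrays were under the floor at 6.53%, 3.04% and 2.45%. Those 7706 were not matched in signal level to the chosen probe sets either. Wild-type replicate 3 kept out 73 probe sets by itself, and its signal at 1 of them was 7343. That was Sgs3, a glue protein gene of the salivary gland, with 13511, 2833 and 9630 in the mutant arrays and 0.667, 0.679 and 7343 in wild-type replicates 1, 2 and 3.

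**Figure D4:**
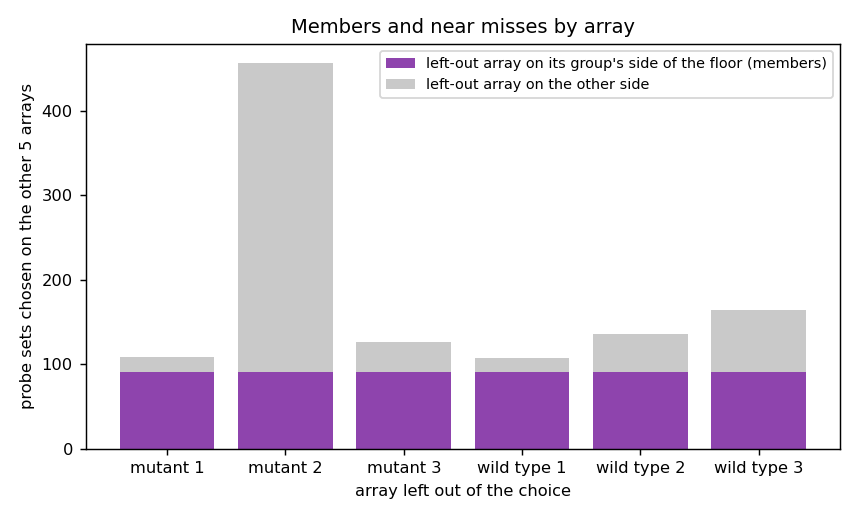
Number of probe sets chosen on the other 5 arrays when each array is left out, with those where the left-out array lay on its group's side of the floor in purple (91 in every bar) and the others in grey. The bar without mutant replicate 2 reaches 456, and the other 5 reach 107 to 164.

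Several members act in cell division, a grouping made after the names of the members were seen. Beside Kmn1 they were gwl, the Greatwall kinase of mitotic entry, Mps1, a kinase of the spindle checkpoint, Sse, the separase that parts sister chromatids, Sas-4, a centriole protein, and msd5, a spindle assembly factor. The gwl probe set had 52.2, 26.0 and 36.8 in the mutant arrays, against 8.23, 15.9 and 16.4 in the wild-type arrays. Mps1 had 24.4, 24.96 and 27.4 in the mutant arrays, against 17.7, 18.0 and 13.3 in the wild-type arrays. For Sse the mutant values were 23.7, 29.2 and 29.3 and the wild-type values 17.2, 17.7 and 19.9. Except for Kmn1, these members did not pass the test (limma adjusted p = 0.122 to 0.370).

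A list of 75 mitosis and centrosome genes was then written to set these 6 beside the rest, so it was built with the members in view. Of its genes 61 were measured and 53 probe sets were tested, of which limma called 1 higher, Kmn1, and 0 lower, where 0.764% and 0.623% of all tested probe sets were called. At an unadjusted p under 0.05 the counts were 11 higher and 0 lower, which is 20.8% higher against 15.0% of all tested probe sets. The median fitted log2 fold change was 0.36 over the list, against 0.10 over all tested probe sets. Without mutant replicate 2 the counts were 14 higher and 0 lower, where 20.4% and 16.6% of all tested probe sets were called. The summed signal of the list was 4693, 3793 and 4702 in the mutant arrays, against 3127, 3555 and 3468 in the wild-type arrays. These values include the 6 members, which the choice places higher in every mutant array. With the 6 left out, 47 tested probe sets remained, with a median of 0.32, and limma called 0 of them in either direction (8 higher and 0 lower at an unadjusted p under 0.05) and 12 higher without mutant replicate 2. The sum was then 4418, 3565 and 4441 in the mutant arrays, against 3035, 3449 and 3376 in the wild-type arrays.

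Beside PpD5, described above, 3 members with a known link to the germ line are given here. Mst84Da, a male-specific transcript of the testis, had 26.6, 23.5 and 36.3 in the mutant arrays, against 9.90, 19.1 and 19.7 in the wild-type arrays. The germ line innexin zpg, which forms gap junctions between germ cells and their support cells, had 31.2, 27.4 and 22.95 in the mutant arrays, against 10.97, 19.5 and 17.2 in the wild-type arrays. Ntf-2r, a retrocopy of a nuclear transport factor gene that is active in the male germ line, had 43.9, 21.5 and 38.0 in the mutant arrays, against 11.4, 14.1 and 16.6 in the wild-type arrays. At Mst84Da and zpg the nearest arrays of the groups were under 1.25-fold apart.

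Gonads lie within the larval fat body, and testis markers varied between these arrays. The summed signal of 22 testis and male germ line probe sets was 3439, 1515 and 3561 in mutant replicates 1, 2 and 3, against 920, 1765 and 1687 in wild-type replicates 1, 2 and 3. Mutant replicates 1 and 3 were high, while mutant replicate 2 lay within the wild-type range. All 18 tested probe sets of the list had a log2 fold change above 0, from 0.01 to 1.35, and 0 were called (limma adjusted p = 0.139 to 0.982), with 5 (27.8%) higher at an unadjusted p under 0.05, against 15.0% of all tested probe sets. Without mutant replicate 2 limma called 9 of the 18 higher, where 20.4% of all tested probe sets were called higher. The list includes the member Mst84Da. The 12 probe sets of the female and general germ line list, which holds zpg, had a summed signal that went the other way. It was 811, 1087 and 882 in the mutant arrays, against 2460, 1806 and 2005 in the wild-type arrays. Of 7 tested, limma called 0 higher and 1 lower, against 0.764% and 0.623% of all tested. At an unadjusted p under 0.05, 2 were higher (28.6%) and 1 lower (14.3%), against 15.0% and 12.3%. Of the 7, 4 had a log2 fold change above 0. The testis tubulin gene betaTub85D had 1308, 385 and 1128 in the mutant arrays, against 170, 427 and 456 in the wild-type arrays. The part of gonad tissue in the levels of PpD5, Mst84Da, Ntf-2r and other members was not tested. In such bulk samples fewer cells of a type and less RNA per cell cannot be told apart.

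Salivary gland markers moved in another way. Their summed signal over 11 probe sets was 47406, 15579 and 40683 in the mutant arrays, against 6944, 5867 and 33552 in the wild-type arrays, so wild-type replicate 3 lay among the mutant arrays. Glue genes such as Sgs3, given above, carried this sum, and other genes of the list did not follow it. For ng1 the signals were 616, 2376 and 695 in the mutant arrays, against 2360, 1899 and 1913 in the wild-type arrays. Of the list 10 were tested by limma and 0 were called. At an unadjusted p under 0.05 the counts were 4 higher (40%) and 0 lower, against 15.0% and 12.3% of all tested probe sets. Without mutant replicate 2 the calls were 2 higher and 3 lower, where 20.4% and 16.6% of all tested probe sets were called. No salivary gland marker was a member, and neither was any fat body, midgut, muscle or hemocyte marker. Of 13 hemocyte marker probe sets, 7 were under the floor in all 6 arrays, among them those of Hml, eater and NimC1. Their signals summed to between 4061 and 4138 on mutant arrays, against 3395 and 3552 as lowest and highest sums on wild-type arrays. Fer2LCH and srp made up between 93.5% and 97.4% of the sum on mutant arrays, and between 95.9% and 97.0% on wild-type arrays. The other hemocyte probe sets summed to 268, 106 and 213 in the mutant arrays, against 119, 139 and 107 in the wild-type arrays, where the groups overlapped. Of the 4 tested hemocyte probe sets limma called 0. At an unadjusted p under 0.05 the counts were 0 higher and 0 lower, against 15.0% and 12.3% of all tested probe sets.

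**Figure D5:**
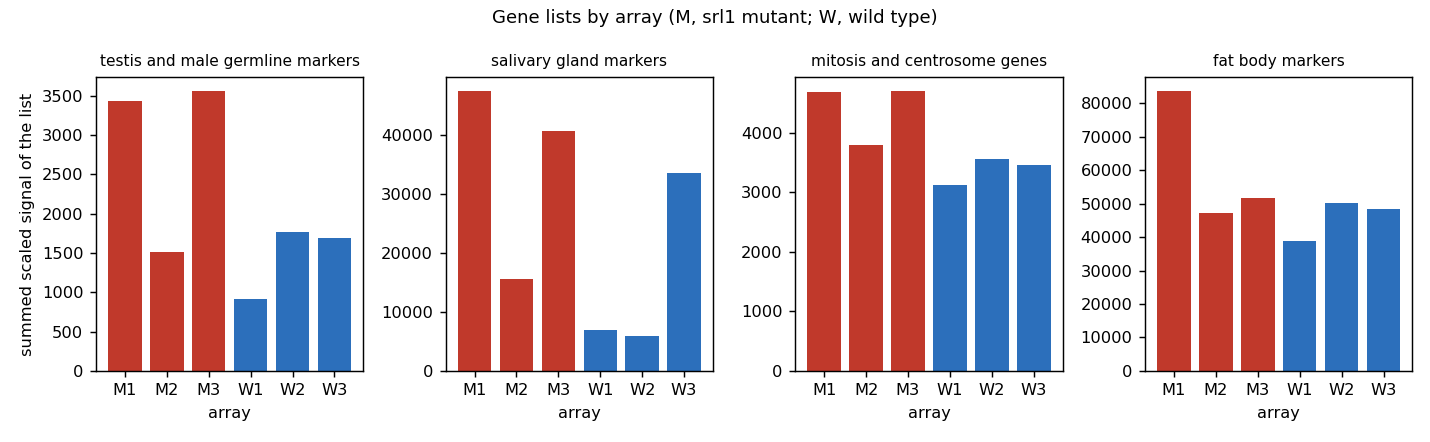
Summed scaled signal of 4 gene lists in each array, with mutant replicates 1 to 3 (M1 to M3, red) left of wild-type replicates 1 to 3 (W1 to W3, blue) and each axis starting at 0. Testis markers are high in M1 and M3, salivary gland markers also in W3, and the mitosis list is lowest in W1.

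Among the other named members, tim, the timeless gene of the circadian clock, had 84.4, 23.7 and 56.2 in the mutant arrays, against 9.03, 8.85 and 12.6 in the wild-type arrays. Karl, which encodes a lipocalin, had 80.4, 32.6 and 64.5 in the mutant arrays, against 5.88, 8.84 and 16.2 in the wild-type arrays. A second Karl probe set was at or above the floor in all 6 arrays, with 142, 58.7 and 122 in the mutant arrays against 38.1, 34.3 and 24.6 in the wild-type arrays. Karl was thus not absent from the wild type by that probe set. Dcp-1, an effector caspase, had 34.5, 24.2 and 20.7 in the mutant arrays, against 16.3, 18.3 and 19.1 in the wild-type arrays. Timp, an inhibitor of matrix metalloproteases, had 30.1, 22.4 and 21.9 in the mutant arrays, against 14.03, 11.6 and 3.91 in the wild-type arrays.

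A pair of members have roles in mitochondria. Gpo2, a mitochondrial glycerol-3-phosphate dehydrogenase, had 67.6, 21.5 and 36.5 in the mutant arrays, against 12.6, 8.21 and 14.2 in the wild-type arrays. Dic4, of the mitochondrial dicarboxylate carriers, had 46.7, 23.8 and 43.99 in the mutant arrays, against 11.8, 18.9 and 18.1 in the wild-type arrays. Both were lowest in mutant replicate 2 among the mutant arrays, and neither was called (limma adjusted p = 0.129 for Gpo2 and 0.134 for Dic4).

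Values of 3 further members, Pde8, Nhe2 and Tsp39D, follow. Pde8, a cyclic nucleotide phosphodiesterase, had 26.8, 27.1 and 29.97 in the mutant arrays, against 15.99, 13.6 and 19.2 in the wild-type arrays. Nhe2, a sodium/hydrogen exchanger, had 48.99, 25.2 and 22.8 in the mutant arrays, against 14.2, 20.1 and 12.4 in the wild-type arrays. The tetraspanin gene Tsp39D had 36.1, 24.1 and 39.7 in the mutant arrays, against 8.60, 9.94 and 11.9 in the wild-type arrays. Its gap was 2.03-fold, where that of Pde8 was 1.398-fold and that of Nhe2 1.14-fold, and none of the 3 was called.

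The nuclear factors Fancl and FLASH were also dim. Fancl, the ubiquitin ligase of the Fanconi anaemia DNA repair pathway, had 25.6, 22.8 and 28.4 in the mutant arrays, against 14.5, 19.4 and 18.5 in the wild-type arrays. FLASH, a factor for the processing of histone mRNA, had 29.5, 21.2 and 26.9 in the mutant arrays, against 16.1, 14.7 and 15.1 in the wild-type arrays. In both, all 6 arrays lay within 10 units of the floor.

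Dim members with every wild-type signal under the 95th percentile of the control probe sets included CG2772 and CG18788. CG2772 had 21.7, 20.6 and 24.4 in the mutant arrays, against 6.16, 3.80 and 1.29 in the wild-type arrays, a gap of 3.34-fold. Its neighbour CG8840 had 41.4, 28.6 and 27.5 in the mutant arrays, against 14.1, 18.05 and 17.6 in the wild-type arrays, a gap of 1.52-fold. CG18788 had 25.2, 20.7 and 26.9 in the mutant arrays, against 1.36, 3.57 and 8.23 in the wild-type arrays. At 21 of the 91 members all wild-type signals lay under the 95th percentile of a narrower set of controls, those with names starting AFFX-Dm-.

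For 14 of the 67 genes the arrays carry further probe sets, 23 in all. Of these 12 were under the floor in all 6 arrays and 7 were at or above it in all 6. Of the 9 that were tested 8 had a log2 fold change above 0. The median over all tested probe sets was itself above 0, at 0.10. Several of the 9 share a gene, so they are not separate readings. Of the 9, 0 were called, with a lowest limma adjusted p of 0.0961 at Karl. At an unadjusted p under 0.05 the counts were 2 higher (22.2%) and 0 lower, against 15.0% and 12.3% of all tested probe sets. The gene pyd, a junction scaffold protein, was detected in all 6 arrays by others of its probe sets. Its member had 34.6, 22.5 and 26.2 in the mutant arrays, against 13.8, 1.52 and 19.6 in the wild-type arrays. A further pyd probe set, 1637428_a_at, had 221, 129 and 191 in the mutant arrays, against 156, 127 and 134 in the wild-type arrays, where the groups overlapped. For ReepA the second probe set had 127, 110 and 113 in the mutant arrays, against 91.5, 107 and 135 in the wild-type arrays.

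Of the 265 probe sets on the 21 other gene lists, 2 (0.755%) were members, Mst84Da and zpg, against 0.485% of all numeric probe sets. No probe set of the oxidative phosphorylation list was a member, and limma called 0 of its 16 tested probe sets in either direction with all arrays (5 lower, or 31.3%, at an unadjusted p under 0.05, against 12.3% of all tested probe sets). Without mutant replicate 2 limma called 15 of the 16 lower, where 16.6% of all tested probe sets were called lower. None of the lists for ecdysone response, insulin and TOR signalling, lipid metabolism, immune genes or heat shock held a member. At a share of 0.485% lists this short seldom hold 1, so their lack of members carries no weight.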

How the data were processed

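The deposited table gives every probe set a linear signal intensity per array, and the submitters' processing notes name GCOS 1.4 and MAS5. Settings are not given, and detection calls were not used here. Of 18952 probe sets, 183 controls were set apart. Each array was divided by its mean after trimming 2% from each end over all probe sets, and multiplied by the mean of the 6 trimmed means. A probe set at or above the floor is called detected here. Probe sets at or above the floor in at least 3 arrays were tested on log2(signal + 5), a pseudocount that shrinks fold changes of dim probe sets, with limma 3.58.1 in R 4.3.3 (intensity trend, Benjamini-Hochberg adjustment, two-sided, no replicate block). The fit was also run on simulated data with independent noise in each array. Those data held no departure of a whole array such as that of mutant replicate 2, so they cannot show how it affects the calls.

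Genes come from the platform annotation, which pairs 13647 numeric probe sets with 1 gene, 402 with several and 4720 with none. Gene identifiers, arms and the gene order come from the RefSeq table of Release 6, and coordinates were used only to set that order.

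Members and lists were chosen with earlier results of these data known. By rule the text names the 10 members with the highest lowest mutant array, the 5 lowest and 5 highest for mutant replicate 2 against its partners, the 3 nearest the floor on either side, and members on the gene lists. Cyp6a17, Cyp28d2, LManII, PpD5, the other called members, the cell division genes, Ntf-2r, Fbp1, Fbp2, Col4a1, ng1, tim, Karl, Dcp-1, Timp, pyd, Gpo2, Dic4, Pde8, Nhe2, Tsp39D, Fancl, FLASH, CG2772, CG8840, CG18788 and the most even members were named after their values were seen. The number of arrays limits the precision.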

Additional observations from a re-analysis of the deposited data

How the results depend on the processing

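The count of 91 members was 51 with median centring, 56 with quantile normalization and 35 without scaling, and requiring a 2-fold gap left 27, whose median gap was 1.54 on the log2 scale. Of the 91, 41, 47 and 30 stayed members under the first 3 of these. Under those scalings and the scalings to hybridisation or poly-A controls, 24 members stayed in all 5 and 17 in none. With control scalings, 5% trimming and floors of the target divided by 4 or 10 the count stayed within 1.5 times, although only 20, 38 and 9 of the 91 were kept under the last 3. With a single array left out there were 107 to 456 members (456 without mutant replicate 2, 164 without wild-type replicate 3), a median gap of 0.4968 to 1.0002 and a median difference of mutant replicate 2 from its partners of -1.32 to -0.19, both on the log2 scale. Fewer arrays then had to meet the rule. The 13 calls among members became 7 with no filter, 2 with the replicate block and 3 to 64 with 1 array left out, and the cause was not tested. The deviations of same-numbered arrays from their group means correlated at -0.35, -0.11 and 0.45. These values had no common sign, and with 3 arrays per group they cannot settle whether the numbers mark pairs. Signals near the floor are limited by background.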
